A study of Mus musculus with 6 samples.

Results

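The regions described here are stretches of open chromatin that lay at the ends of protein-coding genes and carried a peak in every one of 6 ATAC-seq samples, and the measure taken from them is their width. Merging every peak with any peak of another sample that overlapped it by 1 bp or more gave 75961 regions, of which 31159 had a peak in all 6 samples. Of these shared regions, 10650 overlapped a window of 1 kb either side of an annotated gene end (RefSeq, GRCm38.p6, the assembly also called mm10), which is 34.2% of the shared and 14% of all merged regions. They lay at ends of 11230 of 21887 protein-coding genes. Width is the number of bases inside a region that the peaks of 1 sample cover. The regions were chosen by the measured presence of a peak in all 6 samples, which is therefore not a result. This choice also removes every region whose width reached 0 in any sample.

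ATAC-seq marks open chromatin by the insertions of a transposase. The material was lineage-depleted bone marrow of C57BL/6 mice, that is, marrow from which mature blood cells were removed with antibodies so that stem and progenitor cells are enriched. There were 3 samples with intact Utx and 3 samples of the Utx-deficient genotype, called wild type and knockout here. The labels give neither age nor sex, do not say which exons were deleted, in which cells or by which driver, and do not tell separate animals from repeat samples of 1 animal, so p-values measure only the spread between these samples. The comparison of knockout with wild type is the only one in the design.

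Promoters of active genes are held free of nucleosomes by bound transcription factors and remodelling complexes, and the open stretch usually runs to both sides of the transcription start. Genes of cell identity often have further binding sites close to the promoter or inside the gene, which can extend the open stretch. UTX, encoded by Kdm6a on chromosome X, removes methyl groups from lysine 27 of histone H3 and is a subunit of the COMPASS-like complexes that act at enhancers and promoters.

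The promoters of regions with the greatest loss or gain of width show which sequences lie inside the compared stretches. The first 6 are those of the first 3 genes by rank in each direction that have an entry in the RefSeq promoter table, and Tal1 and Irf4, which encode blood lineage transcription factors, were added after the values were seen. Each is the strand of the gene from 250 bases before to 50 bases after the annotated start, in GRCm38.p6. Septin8 is at chr11:53519486-53519785 (+), Epor at chr9:21963527-21963826 (-), Lgals3bp at chr11:118401910-118402209 (-), Spib at chr7:44532022-44532321 (-), Gfra1 at chr19:58455349-58455648 (-), Htr1b at chr9:81633783-81634082 (-), Tal1 at chr4:115057561-115057860 (+) and Irf4 at chr13:30748983-30749282 (+). Capitals mark matches, on either strand, to GATAAG (the GATA factor motif), CCGGAAG (an ETS motif), GGGCGG (the GC box), CCAAT (the CCAAT box), TATAAA (the TATA box) and CACGTG (the E-box).
Septin8: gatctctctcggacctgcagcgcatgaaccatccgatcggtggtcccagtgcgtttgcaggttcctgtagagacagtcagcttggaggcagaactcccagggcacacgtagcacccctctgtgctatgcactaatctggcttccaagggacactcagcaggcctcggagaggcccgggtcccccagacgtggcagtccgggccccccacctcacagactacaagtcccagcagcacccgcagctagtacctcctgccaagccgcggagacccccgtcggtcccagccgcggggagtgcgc
Epor: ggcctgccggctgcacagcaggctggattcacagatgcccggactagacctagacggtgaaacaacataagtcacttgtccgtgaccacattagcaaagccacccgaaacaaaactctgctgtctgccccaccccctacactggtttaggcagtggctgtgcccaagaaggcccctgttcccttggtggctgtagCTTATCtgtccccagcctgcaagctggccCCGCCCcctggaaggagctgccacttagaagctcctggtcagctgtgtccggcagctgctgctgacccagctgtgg
Lgals3bp: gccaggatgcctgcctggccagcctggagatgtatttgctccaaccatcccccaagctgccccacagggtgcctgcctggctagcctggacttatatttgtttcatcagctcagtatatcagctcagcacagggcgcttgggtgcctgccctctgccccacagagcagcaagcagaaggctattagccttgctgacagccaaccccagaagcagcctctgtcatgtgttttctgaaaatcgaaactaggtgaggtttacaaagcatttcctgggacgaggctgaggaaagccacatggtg
Spib: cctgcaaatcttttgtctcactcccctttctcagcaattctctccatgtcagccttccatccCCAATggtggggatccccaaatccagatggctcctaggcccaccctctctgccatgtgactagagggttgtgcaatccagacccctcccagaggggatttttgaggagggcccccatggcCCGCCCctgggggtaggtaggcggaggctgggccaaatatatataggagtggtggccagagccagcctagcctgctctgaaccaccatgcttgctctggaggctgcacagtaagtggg
Gfra1: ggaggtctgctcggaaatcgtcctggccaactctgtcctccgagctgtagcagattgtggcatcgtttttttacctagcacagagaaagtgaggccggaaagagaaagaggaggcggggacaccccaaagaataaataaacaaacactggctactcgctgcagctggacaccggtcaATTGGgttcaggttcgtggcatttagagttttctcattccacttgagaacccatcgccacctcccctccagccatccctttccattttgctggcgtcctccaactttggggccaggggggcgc
Htr1b: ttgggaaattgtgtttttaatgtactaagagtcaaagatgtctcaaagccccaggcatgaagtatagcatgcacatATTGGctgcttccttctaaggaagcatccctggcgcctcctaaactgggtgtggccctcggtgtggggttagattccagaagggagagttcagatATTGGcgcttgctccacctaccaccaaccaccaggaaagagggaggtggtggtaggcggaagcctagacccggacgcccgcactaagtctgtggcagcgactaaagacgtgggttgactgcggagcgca
Tal1: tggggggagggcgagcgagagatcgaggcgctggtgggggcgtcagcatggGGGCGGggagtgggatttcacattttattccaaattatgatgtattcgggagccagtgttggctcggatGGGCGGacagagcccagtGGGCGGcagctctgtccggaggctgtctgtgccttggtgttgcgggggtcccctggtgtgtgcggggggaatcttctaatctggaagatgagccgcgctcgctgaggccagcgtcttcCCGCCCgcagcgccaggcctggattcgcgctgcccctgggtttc
Irf4: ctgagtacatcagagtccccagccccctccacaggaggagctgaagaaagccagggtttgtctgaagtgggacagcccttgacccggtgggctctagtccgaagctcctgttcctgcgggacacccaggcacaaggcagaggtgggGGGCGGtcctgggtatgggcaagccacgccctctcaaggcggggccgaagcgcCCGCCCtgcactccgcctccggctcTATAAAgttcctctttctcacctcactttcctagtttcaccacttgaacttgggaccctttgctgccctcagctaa
The Septin8 and Lgals3bp promoters held none of these 6 motifs. The Epor promoter held 1 GATAAG match and 1 GC box, both on the opposite strand, and it lies 498 bp outside its region, which is wholly inside the gene. The Spib promoter held a CCAAT box and a GC box, those of Gfra1 and Htr1b held 1 and 2 CCAAT boxes, that of Tal1 held 4 GC boxes, and that of Irf4 held 2 GC boxes and a TATA box. Of the Htr1b promoter, 255 bases are inside the region. A match is a description of the letters, not evidence of binding.

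The knockout lists were shorter: 57405, 57917 and 57622 peaks were listed for wild-type samples 1 to 3, and 45260, 50249 and 44576 for knockout samples 1 to 3. Sequencing depth is unknown. Peaks covered 33.0 ± 0.666 Mb in wild type and 27.9 ± 1.73 Mb in knockout (SD, n = 3 each). List length therefore moves with genotype, and its part in the widths was not tested beyond the settings given with them. A shared region lay at an end of 14 of 17 listed stem cell genes, 14 of 20 granulocyte and monocyte genes and 15 of 28 erythroid genes. The same was so for 7 of 10 dendritic cell, 6 of 14 B lymphoid, 4 of 14 T and NK, 5 of 15 megakaryocyte and 1 of 9 mast cell genes. Open ends of genes of several lineages were thus present in this material. Over all protein-coding genes the count was 11230 of 21887, and over housekeeping genes 19 of 20. Presence in all 6 samples chose the regions, so these counts do not check the labelled cell type.

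At Kdm6a itself the start region (chrX:18161595-18164621) was 2398, 2978 and 3005 bp wide in wild-type samples 1 to 3 and 2976, 2993 and 2844 bp in knockout samples 1 to 3. The groups overlapped (log2 difference 0.08 ± 0.09 SE, limma adjusted p = 0.567). Since the deleted part of the gene is not given, this width does not check the genotype.

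Shared regions at gene ends had lower median widths in knockout, by a margin that the permutation test cannot bring under 0.05 with these sample numbers. Their median width was 985, 973.5 and 1018 bp in wild-type samples 1 to 3 and 920, 942.5 and 904 bp in knockout samples 1 to 3. All 3 knockout medians were below all 3 wild-type medians, with means of 992 ± 23.1 and 922 ± 19.3 bp (SD, n = 3 each), a difference of -70.0 bp or -7.06%. The two-sided exact permutation p was 0.1, the smallest that 3 against 3 samples allow. The lower quartile differed by -43.7 bp and the upper quartile by -103 bp, each with p = 0.1 in the same exact permutation test. With only the widest 44576 peaks of every list, so that all lists had the same length, the difference in medians was -73.2 bp. With the widths of each sample centred on its own median over all shared regions, it shrank to -31.6 bp. The exact permutation p was then 0.2 (n = 3 each). Regions at gene ends are themselves 34.2% of the regions that set this median. The shrinkage therefore cannot tell how much of the difference was shared with regions elsewhere.

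The difference was not shown to be particular to gene ends. Shared regions elsewhere in the genome had medians of 483, 472 and 459 bp in wild type and 437, 472 and 430 bp in knockout, and these groups overlapped (difference -25.0 bp, exact permutation p = 0.3, n = 3 each). On the log2 scale, regions at gene ends exceeded those elsewhere by 1.07 ± 0.07 in wild type and by 1.05 ± 0.04 in knockout (SD, n = 3 each, exact permutation p = 0.6), a difference of -0.03. This comparison depended on the setting. In bases instead of log2 the difference was -45 bp, and with the widest 50% of peaks it was -0.114 on the log2 scale, each with all samples apart between genotypes (exact permutation p = 0.1, the smallest possible, n = 3 each). The regions at gene ends made up a larger share of all covered bases in knockout, 40.2 ± 1.71% against 36.3 ± 0.2% (SD, n = 3 each, exact permutation p = 0.1), beside a total that was lower. Peaks of regions that any sample lacked count only in the total, and the wild-type lists were longer. This share is therefore tied to the presence rule and list length, and is not a result about gene ends. The number of separate peaks per region was 1.06 in both genotypes (exact permutation p = 0.9, n = 3 each), and 86.1% of the regions had exactly 1 peak in each sample.

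**Figure D1:**
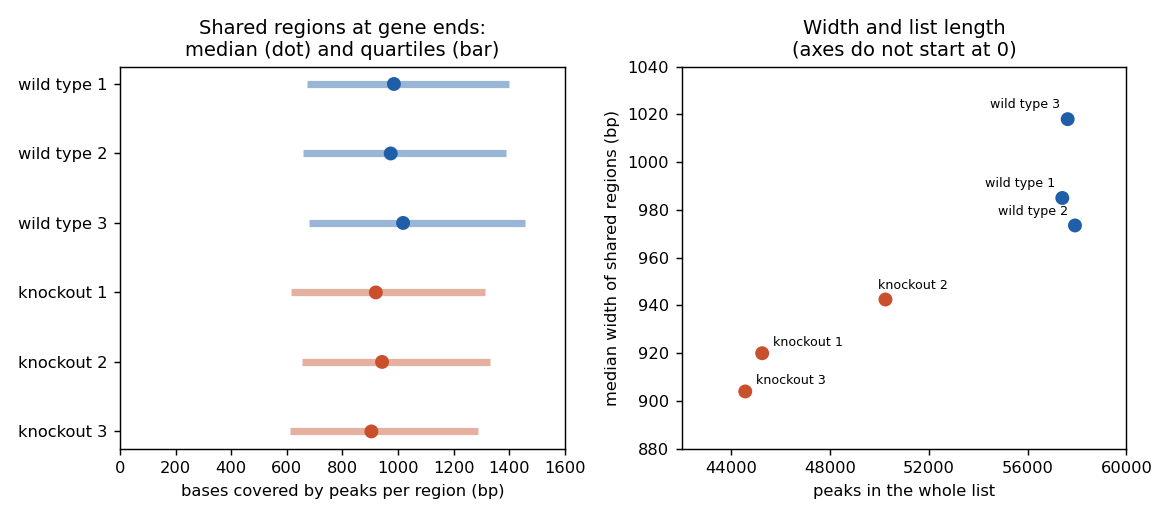
Left, median (dot) and quartiles (bar) of bases covered per shared region at a gene end, in bp, for each of the 6 samples. Right, the same medians against the number of peaks in each whole list. Knockout medians (904 to 942.5 bp) are all below wild-type medians (973.5 to 1018 bp), and the knockout lists are also the shorter ones.

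Single regions were compared with limma on log2 width, fitted over all 31159 shared regions with Benjamini-Hochberg adjustment over all of them. At an adjusted p of 0.05, 1016 regions at gene ends (9.54%) were narrower in knockout, where 8.84% of all shared regions were, and 429 (4.03%) were wider, where 6.34% of all were. The share of narrower regions was thus near the background, and that of wider regions was below it. The median log2 difference was -0.09 at gene ends, -0.11 elsewhere and -0.10 over all shared regions. With each sample centred on its own median over all shared regions, 752 regions at gene ends were narrower (background 7.11%) and 534 wider (background 7.8%). Of the regions called in the original scale, 744 narrower and all 429 wider ones were also called after centring. The narrower share of called regions was 70.3%, or 58.5% after centring, against 52.9% and 43.6% for shared regions elsewhere. Whether these shares differ was not tested.

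All 1016 narrower and all 429 wider regions had groups that did not overlap. Without regard to the test, all 3 knockout widths were below all 3 wild-type widths in 3060 regions at gene ends (28.7%, where 26.7% of all shared regions were) and above them in 1024 (9.62%, where 12.8% of all were). Most called differences were moderate: the median log2 difference was -0.57 among narrower and 0.67 among wider regions. A difference of 2-fold or more was found in 120 narrower and 109 wider regions. These were not counted over all shared regions, so the counts are not a result about gene ends. The lower and upper quartiles of the log2 difference were -0.25 and 0.04 at gene ends and -0.29 and 0.08 over all shared regions. The narrower regions lay at ends of 1260 genes and the wider ones at ends of 448. Leaving out 1 sample lowered these counts. The narrower count was 641, 661, 570 and 591 without wild-type samples 1, 2 and 3 and knockout sample 3, and the wider count was 285, 270 and 266 without wild-type sample 2 and knockout samples 2 and 3.

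**Figure D2:**
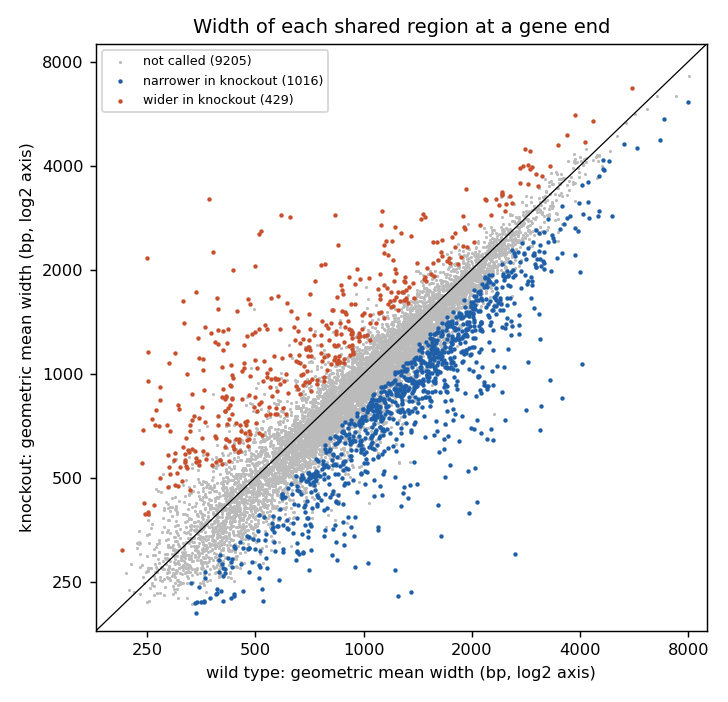
Geometric mean width in knockout against wild type (bp, both axes log2) for each of the 10650 regions, with the 1016 narrower and 429 wider regions coloured. The line marks equal width. Most points lie just under it. The 10 greatest gains named in the text had wild-type means of 253 to 597 bp. Their minimum mean of 500 bp was taken over all 6 samples, so a region could pass it by its knockout widths alone.

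The 10 greatest losses of width were at Septin8, Epor, Rpl3, Lgals3bp, Fn3k, Mfsd2b, Samd7, Hebp1, Psmf1 and Frrs1. They were taken from regions with a mean of at least 500 bp over all 6 samples, an adjusted p under 0.05 and groups that did not overlap. Separation of the groups was thus a condition of the choice and not a result. A region could pass the 500 bp minimum by its wider genotype alone. Septin8, which encodes a cytoskeletal GTPase, had the greatest loss (chr11:53518680-53522009, start). Its region was 2383, 2356 and 3279 bp wide in wild-type samples 1 to 3 and 307, 257 and 341 bp in knockout samples 1 to 3. Every knockout sample was far below every wild-type sample, a log2 difference of -3.14 ± 0.16 (SE, limma adjusted p = 0.000208), or 8.81-fold between geometric means. Epor encodes the erythropoietin receptor, on which survival of red cell precursors depends. Its region (chr9:21961393-21963029) was 1540, 1154 and 1392 bp in wild type and 199, 276 and 232 bp in knockout. The shortest peak in the lists is 199 bp, so in knockout sample 1 this region was as narrow as the shortest listed peak. The log2 difference was -2.53 ± 0.16 (limma adjusted p = 0.000294).

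Rpl3, a protein of the large ribosomal subunit, had a region (chr15:80075948-80077429) of 1482, 896 and 1467 bp in wild type and 240, 226 and 214 bp in knockout. The groups did not overlap, although wild-type sample 2 was narrower than the other two (log2 difference -2.46 ± 0.20, limma adjusted p = 0.000661). Hebp1, a haem-binding protein, had the most even change of the 10 (chr6:135165236-135168654). Its region measured 2750, 3207 and 3365 bp in wild type and 656, 721 and 687 bp in knockout (log2 difference -2.17 ± 0.09, limma adjusted p = 0.000134). Mfsd2b exports sphingosine-1-phosphate from red cells and platelets, and its start region was 1650 ± 174 bp in wild type and 339 ± 35.5 bp in knockout (SD, n = 3 each). Frrs1, a ferric reductase, was 1621 ± 173 and 457 ± 249 bp wide in the same order (SD, n = 3 each), with knockout sample 3 at 743 bp and the other knockout samples at 296 and 331 bp. The other 4 regions were at Lgals3bp, which encodes a secreted galectin-binding protein, Fn3k, a kinase that removes sugar adducts from proteins, Samd7 (far end), and Psmf1, a proteasome inhibitor. Their mean widths in wild type were 2011, 2070, 1248 and 3608 bp and in knockout 395, 433, 273 and 852 bp.

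Under the same conditions of choice, the 10 greatest gains of width were at Spib with Pold1, Gfra1, Htr1b, Il7r, Lrrn3, Vpreb3, Irf4, Lef1, Ky and St6gal1. The greatest gain was in a region holding the start of Spib and the far end of Pold1 (chr7:44531072-44533505). Spib encodes an ETS factor of B cells and plasmacytoid dendritic cells, and Pold1 the catalytic subunit of DNA polymerase delta. Its width was 199, 259 and 300 bp in wild-type samples 1 to 3 and 1886, 2427 and 2204 bp in knockout samples 1 to 3. In wild-type sample 1 the region was thus as narrow as the shortest listed peak, which is 199 bp. The groups were far apart, with a log2 difference of 3.12 ± 0.17 (SE, limma adjusted p = 0.000208). The start region of Il7r, the receptor for the lymphoid growth factor interleukin 7, was 246, 323 and 390 bp in wild type and 1249, 1929 and 1787 bp in knockout (chr15:9527130-9529166). No knockout value came near the wild-type ones (log2 difference 2.37 ± 0.22, limma adjusted p = 0.000945).

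Irf4, a transcription factor of lymphocyte maturation, was 563, 458 and 519 bp wide at its start in wild type and 2236, 2721 and 2682 bp in knockout (chr13:30748778-30751597). This gain was among the most even, with a log2 difference of 2.31 ± 0.11 (limma adjusted p = 0.000197). Lef1 encodes a transcription factor of early lymphocytes in the Wnt pathway. Its start region was 517, 725 and 548 bp in wild type and 2834, 2852 and 2951 bp in knockout (chr3:131110240-131113462). All 3 knockout samples exceeded the wild-type samples (log2 difference 2.29 ± 0.13, limma adjusted p = 0.000208). Vpreb3, a gene of the B lineage, had a far-end region of 666, 831 and 253 bp in wild type and 2473, 2403 and 2896 bp in knockout. St6gal1, a sialyltransferase, had a start region of 437 ± 71.0 bp in wild type and 2001 ± 210 bp in knockout (SD, n = 3 each).

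The remaining 4 gains were at genes best known outside blood. Gfra1, a receptor component for glial cell line-derived factor, had a start region of 330, 467 and 330 bp in wild type and 3003, 3203 and 3429 bp in knockout (log2 difference 3.11 ± 0.14, limma adjusted p = 0.000181). Htr1b, a serotonin receptor, was 245, 327 and 690 bp in wild type and 2239, 2256 and 2264 bp in knockout, so the spread was almost all in wild type. Lrrn3, a neuronal membrane protein, measured 360 ± 129 and 1730 ± 222 bp, and Ky, a muscle gene (far end), 256 ± 64.1 and 1162 ± 135 bp in wild type and knockout (SD, n = 3 each). Across the 10 losses the difference between geometric mean widths was 3.87 to 8.81-fold, and across the 10 gains 4.6 to 8.67-fold. In the narrower genotype the widths were 199 to 950 bp for the losses and 199 to 831 bp for the gains.

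**Figure D3:**
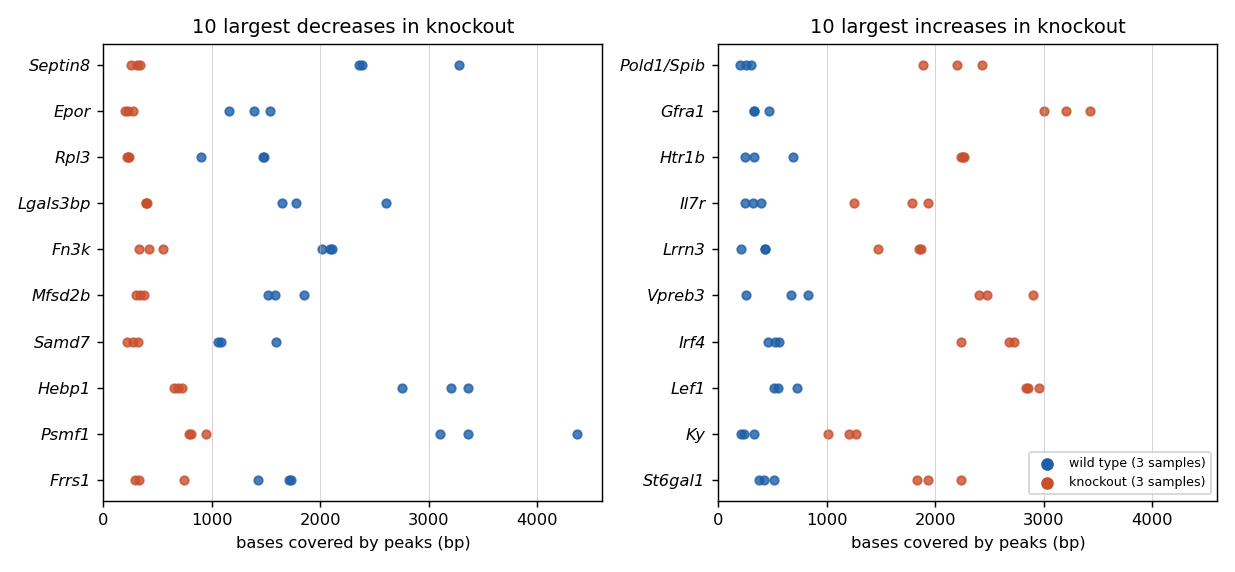
Bases covered by peaks (bp) in each of the 3 wild-type and 3 knockout samples for the 10 greatest losses (left) and the 10 greatest gains (right) of width. In every row the colours are apart, which the choice of these regions required. Septin8 falls from at least 2356 bp to at most 341 bp, and Spib, with Pold1, rises from at most 300 bp to at least 1886 bp.

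Of the 5 widest regions at gene ends, over all 6 samples, 2 were narrower in knockout. The widest lay at the far ends of Hjurp and Mroh2a (chr1:88257445-88265891), with 8025 ± 140 bp in wild type and 7294 ± 543 bp in knockout (SD, n = 3 each), and its groups overlapped. It passed the limma test only without knockout sample 3 (adjusted p = 0.0147). The second, at the far end of Frmd8 (chr19:5841545-5850563), was narrower in knockout: 7281, 8298 and 8395 bp in wild type and 6270, 6256 and 5861 bp in knockout (log2 difference -0.38 ± 0.06, limma adjusted p = 0.00735). A region across the histone genes H2ac7, H2ac8, H2bc7, H2bc8 and H3c4 had 7390 ± 239 and 6370 ± 610 bp (SD, n = 3 each), with groups apart but a limma adjusted p of 0.0744. Tspoap1 had 6564 ± 104 and 6390 ± 829 bp (SD, n = 3 each, groups overlapping). Zfpm1, which encodes FOG1, the cofactor of GATA1, had 6830, 6299 and 7465 bp in wild type and 5307, 5616 and 5446 bp in knockout. It was narrower (log2 difference -0.33 ± 0.06, limma adjusted p = 0.014), a call lost without limma's trend (adjusted p = 0.0601).

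Erythroid genes and GATA factors had a shared region at 15 of 28 listed genes. Of their 16 regions 7 were narrower and 0 wider in knockout, with a median log2 difference of -0.43 against -0.10 over all shared regions. As shares, 43.8% were narrower, where 8.84% of all shared regions were. At an unadjusted limma p under 0.05 there were 13 narrower and 0 wider, where 21.8% of all shared regions were narrower and 11.1% wider. Loss of peaks near erythroid genes, and gain near B lymphoid genes, was already known from these same samples when the lists were drawn up, so neither count is independent evidence of its direction. Beside Epor and Zfpm1, the narrower regions included those at Tal1, Epb41 and Tfrc. Tal1 encodes a basic helix-loop-helix factor that works with GATA1 in red cells. Its start region (chr4:115056210-115059665) was 3343, 3139 and 3456 bp in wild type and 1041, 936 and 902 bp in knockout. The groups were far apart, with a log2 difference of -1.79 ± 0.07 (limma adjusted p = 0.000134).

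The loss was smaller at Epb41 and Tfrc. Epb41, of the red cell membrane skeleton, had a log2 difference of -1.05 ± 0.17 (limma adjusted p = 0.00917). Tfrc, the transferrin receptor, had -0.37 ± 0.09 (limma adjusted p = 0.0301, or 0.0668 after centring). Among regions that missed the threshold, Klf1, an erythroid transcription factor, was 1036, 835 and 1138 bp in wild type and 717, 757 and 896 bp in knockout, which overlap. Bcl11a, a repressor of fetal globin genes, had a log2 difference of -0.02. List members with no shared region at an end included Gata1, Alas2 and Slc4a1. Summed over the 16 regions, width was 32248 to 37639 bp in wild type and 22051 to 23420 bp in knockout. In a bulk sample, fewer cells of a type and less open chromatin per cell cannot be told apart.

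B lymphoid genes showed the opposite pattern. Only 6 of 14 listed genes had a shared region at an end, and of their 7 regions 6 were wider and 0 narrower in knockout, with a median log2 difference of 1.67. The wider share was 85.7%, where 6.34% of all shared regions were wider. The same counts came from an unadjusted limma p under 0.05. The count of wider regions was 6 in every alternative tried for it. A second region at Il7r was 417, 333 and 303 bp in wild type and 1116, 1075 and 1131 bp in knockout (log2 difference 1.67 ± 0.13, limma adjusted p = 0.00062). Blnk, an adaptor of B cell receptor signalling, was 561, 442 and 440 bp in wild type and 1374, 1688 and 1905 bp in knockout. Rag2, a subunit of the recombinase, was 542, 324 and 327 bp in wild type and 1319, 1207 and 1177 bp in knockout. In each of these regions all knockout samples exceeded all wild-type samples. Cd79b, part of the B cell receptor, differed by 1.44 ± 0.24 and Ebf1, a B lineage transcription factor, by 1.16 ± 0.11 on the log2 scale (limma adjusted p = 0.00865 and 0.00122). Cd79a, whose region also holds an end of Arhgef1, did not pass the test (-0.31 ± 0.19, limma adjusted p = 0.298). Summed over the 7 regions, width was 3092 to 3919 bp in wild type and 7756 to 9302 bp in knockout. List members with no shared region included Pax5, Rag1 and Dntt.

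Counts were lower for other lymphoid and for myeloid genes. Among 5 regions at T and NK genes only that of Cd2, an adhesion receptor, was wider, from 426 ± 8.54 to 812 ± 88.8 bp (SD, n = 3 each, limma adjusted p = 0.00251). Of 22 regions at granulocyte and monocyte genes, 4 were narrower (18.2%, background 8.84%) and 2 wider (9.09%, background 6.34%), with a median of -0.23 against -0.10 over all shared regions. The start region of Mpo, which encodes myeloperoxidase, was 2567, 2326 and 1631 bp in wild type and 1052, 1113 and 977 bp in knockout. Its groups did not overlap (log2 difference -1.03 ± 0.16, limma adjusted p = 0.00727). Ctsg, cathepsin G, was narrower by -0.80 ± 0.13 and 1 region of Prtn3, proteinase 3, by -0.59 ± 0.14 on the log2 scale (limma adjusted p = 0.00866 and 0.0343). A second Prtn3 region, at -0.30 ± 0.08, passed with an adjusted p of 0.0458 but not after centring (0.0694). Gfi1, a transcriptional repressor of myeloid and lymphoid progenitors, was wider at both its ends: 3030, 3080 and 2968 bp against 3639, 3746 and 3932 bp in knockout at one, and 340, 413 and 437 bp against 567, 706 and 898 bp at the other. The second of these calls was lost when any of 4 samples was left out, with adjusted p up to 0.074. Summed over the 22 regions, width was 27110 to 29321 bp in wild type and 23377 to 26936 bp in knockout.

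Of 7 regions at megakaryocyte genes, 1 was narrower (14.3%, background 8.84%), at F2rl2, a thrombin receptor family member. Another was wider (14.3%, background 6.34%), at Itgb3, the platelet integrin beta chain. This Itgb3 region was 222, 294 and 432 bp in wild type and 781, 814 and 833 bp in knockout (log2 difference 1.41 ± 0.23, limma adjusted p = 0.00791). A second region at Itgb3 had overlapping groups and no call (limma adjusted p = 0.285). A second at F2rl2 was not called either (limma adjusted p = 0.0902). None of the 7 regions at dendritic cell genes passed the limma test, 0 of them at an unadjusted p under 0.05. The single region at a mast cell gene, the start of Kit, was 1477 ± 18.1 bp in wild type and 1338 ± 33.9 bp in knockout (SD, n = 3 each). Its groups did not overlap. It was narrower at an unadjusted limma p under 0.05 but missed the threshold after adjustment (limma adjusted p = 0.138). Stroma and endothelium genes, which mark other marrow cells, had shared regions at 3 of 11 genes, with 0 called by limma and 1 at an unadjusted p under 0.05. Tcf4, among the dendritic cell genes, measured 1939 ± 156 and 2175 ± 458 bp (SD, n = 3 each), and the Xcr1 region, shared with Fyco1, 2234 ± 310 and 1909 ± 125 bp, which passed only without wild-type sample 1 (limma adjusted p = 0.0399).

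Haematopoietic stem cell genes had 16 regions, of which 1 was narrower (6.25%, background 8.84%). This was the start of Gfi1b, a repressor required in red cells and platelets, at 1053 ± 124 bp in wild type and 635 ± 144 bp in knockout (SD, n = 3 each, limma adjusted p = 0.0333). The call was lost without any 1 of wild-type samples 1, 2 and 3 and knockout sample 1, with adjusted p up to 0.102. A region at Cd34, a surface protein of progenitors, had groups apart at 735 ± 182 and 479 ± 110 bp (SD, n = 3 each) and missed the threshold (limma adjusted p = 0.0979). Meis1, Runx1 and Mecom, stem cell transcription factors, had log2 differences of 0.34, -0.02 and -0.16, none past the test.

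The title of the series names ETS and GATA programmes, and the genes of these factors were read in the same way. Of 20 regions at ETS factor genes 2 were wider and 0 narrower, with a median of -0.03, and at an unadjusted limma p under 0.05 there were 3 in each direction. The wider share was 10%, against 6.34% of all shared regions. Beside Spib, Etv1 was wider, at 2619, 2326 and 2107 bp in wild type and 3241, 3264 and 3103 bp in knockout (log2 difference 0.45 ± 0.08, limma adjusted p = 0.0115). Elk3 was 426, 569 and 989 bp in wild type and 1273, 1142 and 1226 bp in knockout. Its groups did not overlap, and it missed the threshold (limma adjusted p = 0.0561), which it passed after centring (adjusted p = 0.047) and without wild-type sample 3 (adjusted p = 0.00587). Fli1, an ETS factor of stem cells and megakaryocytes, measured 2837 ± 74.5 and 2960 ± 302 bp, and Spi1, which encodes PU.1, 2494 ± 243 and 2443 ± 245 bp at its wider region and 512 ± 49.3 and 439 ± 128 bp at the other (SD, n = 3 each). All 3 of these regions had overlapping groups. Gata2, the GATA factor of stem cells, was 1108, 1102 and 883 bp in wild type and 1019, 594 and 658 bp in knockout, with overlapping groups (log2 difference -0.48 ± 0.21, limma adjusted p = 0.155). It passed the test only without knockout sample 1 (adjusted p = 0.0232). Gata1, Ets1 and Erg had no shared region at an end.

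Of 19 regions at genes of UTX and the COMPASS-like complexes, 2 were narrower and 0 wider, with a median of -0.23 against -0.10 over all shared regions. The narrower share, 10.5%, was near the background of 8.84%. At an unadjusted limma p under 0.05, 9 were narrower and 0 wider, where 21.8% and 11.1% of all shared regions were. Setd1b, a histone H3 lysine 4 methyltransferase whose region also holds an end of Rhof, was 1887, 1993 and 2170 bp in wild type and 1548, 1580 and 1487 bp in knockout (log2 difference -0.39 ± 0.07, limma adjusted p = 0.0114). Kmt2a, another methyltransferase of this residue, differed by -0.28 ± 0.07 (limma adjusted p = 0.0377), which did not pass after centring (adjusted p = 0.0715). Men1, which encodes menin, was 1322, 1317 and 1217 bp in wild type and 1205, 724 and 542 bp in knockout. Its groups were apart, but it passed only without knockout sample 1 (adjusted p = 0.103 with all samples, 0.0084 without it). Wdr5, a shared subunit of these complexes, had 1379 ± 277 and 951 ± 61.7 bp (SD, n = 3 each, limma adjusted p = 0.0602), and passed without wild-type sample 2 (adjusted p = 0.00902). Of 29 regions at Polycomb and SWI/SNF genes, 2 were narrower (6.9%, background 8.84%), at Smarce1 (1167 ± 111 and 782 ± 92.2 bp) and at Brd9 with Trip13 (1586 ± 108 and 1159 ± 46.6 bp, SD, n = 3 each). The Smarce1 call was lost without wild-type sample 1 or 3, with adjusted p = 0.0601 and 0.0591.

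Ribosomal protein genes are transcribed strongly in every cell, and 73 of 75 had a shared region at an end. Of their 84 regions 17 were narrower and 0 wider in knockout, with a median of -0.23. The narrower share was 20.2%, against 8.84% of all shared regions. At an unadjusted limma p under 0.05, 36 were narrower and 1 wider (background 21.8% and 11.1%), and 38 had all knockout widths below all wild-type widths (background 26.7%). After centring, 10 regions were narrower and the median was -0.17, against -0.04 over all shared regions. The count fell to 8, 8, 7, 7 and 5 without wild-type samples 1, 2 and 3 and knockout samples 1 and 3. Rps19, of the small subunit, was 749, 677 and 1206 bp in wild type and 443, 554 and 358 bp in knockout, and Rpl36, with Lonp1, 1186, 856 and 1198 bp and 592, 605 and 618 bp. Both had groups that did not overlap (limma adjusted p = 0.045 and 0.00982). Other narrower regions included that of Rpl7a with Med22, at 1302, 1338 and 1455 bp in wild type and 963, 973 and 942 bp in knockout. Summed over the 84 regions, width was 93702 to 102491 bp in wild type and 78220 to 81666 bp in knockout.

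Housekeeping genes had 22 regions with a median of -0.10, equal to that of all shared regions. Of these, 2 were narrower (9.09%, background 8.84%), at Eef1a1, a translation elongation factor, and at Chmp2a with Ube2m, the latter not after centring (limma adjusted p = 0.0805). The Eef1a1 region, at its far end, was 1608, 1143 and 1316 bp in wild type and 291, 852 and 436 bp in knockout (limma adjusted p = 0.0327). The call did not hold without any 1 of wild-type samples 1, 2 and 3 and knockout samples 1 and 3, with adjusted p up to 0.101. Eef2, which had the next greatest difference in this list, overlapped between groups at 1469 ± 250 and 1142 ± 133 bp (SD, n = 3 each).

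Of 29 regions at cell cycle genes, 3 were narrower (10.3%, background 8.84%) and 1 wider (3.45%, background 6.34%). Among all regions at gene ends the shares were 9.54% and 4.03%. Ccnd3 encodes cyclin D3, which sets the number of divisions of red cell precursors. Its region, at the far ends of Ccnd3 and Bysl, was 866, 748 and 1086 bp in wild type and 448, 488 and 512 bp in knockout (log2 difference -0.88 ± 0.15, limma adjusted p = 0.00914). Cdkn2a, which encodes the inhibitors p16 and p19ARF, was wider, at 644, 634 and 726 bp in wild type and 1169, 1116 and 938 bp in knockout (0.68 ± 0.11, limma adjusted p = 0.00841). Of 25 regions at AP-1 and immediate early genes, 1 was narrower (4%, background 8.84%) and 3 wider (12%, background 6.34%). Klf2, a zinc finger factor of lymphocyte quiescence, was 815, 815 and 876 bp in wild type and 2777, 3049 and 2805 bp in knockout. The groups were far apart, with a log2 difference of 1.78 ± 0.07 (limma adjusted p = 0.000134). Its relative Klf4 had 2061, 1333 and 1182 bp in wild type and 2743, 2987 and 2804 bp in knockout, a call lost without wild-type sample 2 or knockout samples 2 or 3 (adjusted p up to 0.0592).

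Myeloid leukaemia genes had 19 regions, 2 narrower (10.5%, background 8.84%) and 1 wider (5.26%, background 6.34%), with a median of -0.05. The region across Trp53, the tumour suppressor p53, and Wrap53 was 3350, 2953 and 2547 bp in wild type and 1877, 1831 and 1723 bp in knockout (log2 difference -0.70 ± 0.10, limma adjusted p = 0.00501). Idh1, isocitrate dehydrogenase, with Pikfyve had 1340 ± 109 and 908 ± 44.0 bp (SD, n = 3 each, limma adjusted p = 0.00642). Bcor, a corepressor on chromosome X, was wider at 1629, 1648 and 1544 bp in wild type and 2326, 2239 and 1854 bp in knockout (limma adjusted p = 0.027). None of 11 regions at interferon response genes passed the limma test, with 1 at an unadjusted p under 0.05.

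**Figure D4:**
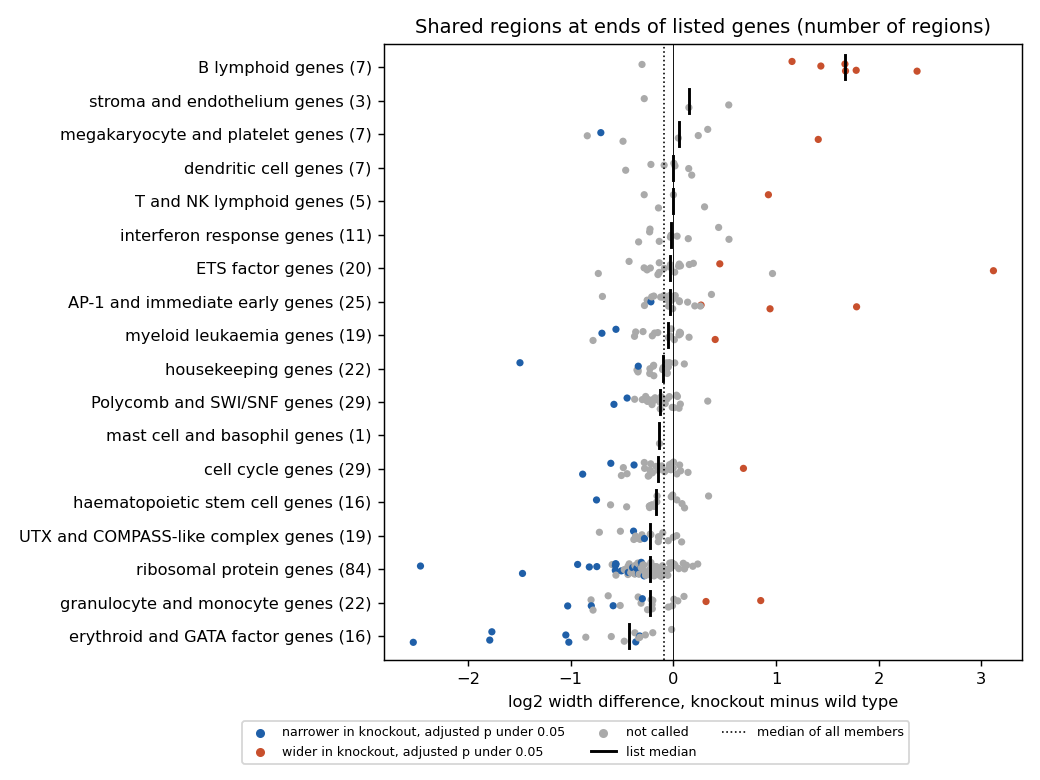
Log2 width difference, knockout minus wild type, of each shared region at an end of a listed gene, for 18 gene lists with the number of regions in brackets. Short bars are list medians, from -0.43 for erythroid genes to 1.67 for B lymphoid genes, and the dotted line is the median of all 10650 regions.

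The median reach of the covered bases to each side of the gene start was shorter in knockout. Edges were measured in 4568 regions that held 1 annotated start with known strand, covered in every sample. The covered stretch reached 424 ± 10.6 bp upstream of the start in wild type and 394 ± 9.67 bp in knockout (SD, n = 3 each, difference -30.0 bp, exact permutation p = 0.1). Downstream it reached 576 ± 21.97 and 528 ± 14.1 bp (SD, n = 3 each, difference -47.8 bp, exact permutation p = 0.1). On both sides all knockout samples were below all wild-type samples. Region by region the pattern was mixed: both sides were shorter in knockout in 50.8% of these regions and both were longer in 16.8%. In 61.2% of them the downstream reach differed by more than the upstream reach. The difference between the sides was not tested.

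In the 370 of these regions that were narrower in knockout, the median downstream reach was 806.5, 764.5 and 815.5 bp in wild type and 468, 480 and 462 bp in knockout. Upstream it was 537, 534 and 559 bp in wild type and 410, 420.5 and 393 bp in knockout. Both sides were shorter in 92.4% of the narrower regions, and the downstream edge moved more in 67.6%. In the 157 wider regions the downstream reach was 414, 461 and 444 bp in wild type and 803, 829 and 811 bp in knockout, and the upstream reach 329, 325 and 330 bp against 390, 415 and 409 bp. Both sides were longer in 80.3%, and the downstream edge moved more in 75.2%. The calls chose these regions by their total width, so their total change is not a result of these measurements.

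**Figure D5:**
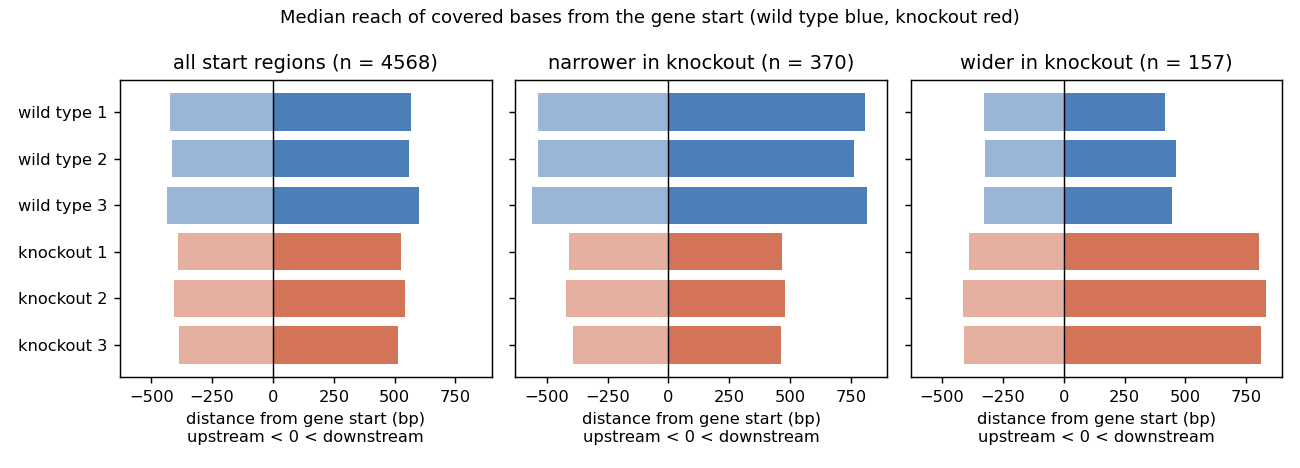
Median distance (bp) that covered bases reach upstream (negative, pale) and downstream (positive, dark) of the gene start in each sample, for all 4568 start regions and for the 370 narrower and 157 wider ones. Downstream reach of the wider regions is 414 to 461 bp in wild type and 803 to 829 bp in knockout.

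Regions were next divided by the kind of gene end. The median width at starts was 1029 ± 28.4 bp in wild type and 959 ± 20.6 bp in knockout, and at far ends alone 515 ± 9.22 and 479 ± 16.7 bp (SD, n = 3 each). Start regions exceeded far-end regions by 1.0 on the log2 scale in both genotypes (exact permutation p = 1, n = 3 each). Of 7238 regions at starts only, 8.97% were narrower and 3.77% wider. Of 582 at far ends only, 10.1% were narrower and 6.53% wider. Of 584 that held a start and a far end, 15.4% were narrower and 2.23% wider.

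The share called narrower varied with the number of genes at a region and with its width. Among the 1882 regions at 2 or more genes 13.4% were narrower and 1.43% wider, against 8.71% and 4.58% of the 8768 at 1 gene. From the narrowest to the widest of 5 equal classes by mean width, the narrower share was 6.47, 7.42, 8.17, 11.4 and 14.3%, while the wider share stayed between 3.19 and 4.74%. The median log2 difference did not follow this order, at -0.11 in the narrowest and -0.08 in the widest class. Regions with more than 1 peak in some sample had 22.7% narrower and 10.3% wider, against 7.42% and 3.02% of those with 1 peak in each sample. None of these shares was tested.

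Promoter sequences were found for 7428 of the regions. Their median GC content was 62.0% and their median number of CpG dinucleotides 22, against 52.7% and 7 over all 32851 promoters of 300 bases in the table. The ETS motif CCGGAAG was in 20.3% of them (8.86% of all promoters), the GC box in 70.6% (35.7%) and the E-box CACGTG in 11.1% (7.15%). The TATA box was in 6.03% (13.6% of all promoters), GATAAG in 4.43% (7.44%) and the CCAAT box in 39.4% (37.4%). Between the narrower and wider regions, CCGGAAG showed the widest gap in proportion. It was in 158 of 716 promoters of narrower regions (22.1%) and in 23 of 262 of wider regions (8.78%). The narrower share was near the 20.3% of all 7428, so the gap came from the wider regions, whose share was near the 8.86% of all promoters. No motif difference was tested. GATAAG was in 6.15 and 4.96%, the GC box in 69.4 and 74.0%, the CCAAT box in 41.3 and 35.9%, the TATA box in 5.31 and 9.92% and the E-box in 11.3 and 8.4%. Median CpG counts were 22 in both, and the narrower share was 9.87, 9.41 and 9.63% in 3 equal classes of rising CpG number.

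The widths were set beside regions present in 1 genotype alone. A region with a peak in all 3 wild-type samples and in 0 knockout samples lay within 20 kb of 26.9% of all shared regions at gene ends, of 43.9% of the narrower, of 11% of the wider and of 25.7% of those not called. A region with the opposite pattern lay within 20 kb of 8.27% of all, 5.31% of the narrower, 27.5% of the wider and 7.7% of those not called. Of the 10 greatest losses, Septin8, Epor, Rpl3 and Hebp1 had such a lost neighbour and 0 had a gained one. Of the 10 greatest gains 9 had a gained neighbour, all but St6gal1, and 1, Vpreb3, also had a lost one. These neighbours come from the same 6 lists, and no test was made.

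The window and the presence rule set sharp limits. The 445 regions whose nearest gene end was 750 to 1000 bp away had a median mean width of 539 bp and a median log2 difference of -0.11, and the 418 shared regions that missed the window by up to 250 bp had 524 bp and -0.12. The 8945 regions that held the annotated end itself had 1022 bp and -0.09. At gene ends 564 further regions had a peak in 5 of the 6 samples, with a median mean width of 334 bp. The missing sample was a knockout sample in 389 of them.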

How the data were processed

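Each of 6 ATAC-seq samples came as a list of peak positions (chromosome, start, end) that the authors deposited, with no count, score or summit. The submitters' processing notes name MACS2 and mm10, and the file labels carry a p of 1e-11. Aligner, read filters and any insertion-site shift were not given in the sources used here, so depth is unknown and no interval that needs it was computed. The regions and gene lists were chosen with earlier results of these data known.

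Width in bases was summed per region and sample, log2 transformed without a pseudocount (no value is 0) and tested with limma 3.58.1 (R 4.3.3, trend, no covariates) over all 31159 shared regions, with Benjamini-Hochberg adjustment at 0.05. Two-sided exact permutation tests (scipy 1.17.1) were run on per-sample medians. Groups followed the genotype labels. Genes came from RefSeq (GRCm38.p6, chromosomes 1-19, X, Y). Strand and promoters came from the RefSeq promoter table, which gave strand for 9098 of the 11230 genes. No exon positions were used.

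Among regions of at least 500 bp on average, the genes named were those at the 10 greatest decreases and increases past the threshold with groups apart, the 5 widest, up to 2 per list, Kdm6a, Gata1, Gata2, Spi1, Ets1, Erg and Fli1. Others were named after their values were seen. Some items that this rule takes are not reported here. Lists were 18, with 385 entries. Tested on simulated data for knockout against wild type (31159 regions, 200 changed), the procedure recovered 57.5% at a log2 change of 1 and 0% at 0.5. In the data 4728 shared regions were called. The Benjamini-Hochberg cut-off is less strict when more regions differ, so these rates do not carry over and smaller differences could pass. Alternatives were centring, equal list lengths, other peak, overlap and window rules, autosomes, other models, leaving out each sample and a replicate block.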

Additional observations from a re-analysis of the deposited data

How the results depend on the processing

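The direction of the difference in median width (-80.2 to -57.1 bp) and in upstream (-35.6 to -24.4 bp) and downstream reach (-55.5 to -35.3 bp) was kept when each sample was left out in turn. The same omissions gave 570 to 883 narrower and 266 to 351 wider regions. The widest 50% of peaks gave 649 and 239, and requiring peaks to cover 50% of a region gave 644 and 207. These settings compare fewer samples or fewer regions. After centring, which was added after seeing the data for these counts, 2026 regions had all knockout widths below all wild-type widths and 1426 had all above. Without centring the counts were 3060 and 1024, so the excess of lower regions was smaller after centring. Some differences changed sign. Regions at gene ends against elsewhere ranged from -0.0489 to 0.0117 (but -0.114 with the widest 50% of peaks and -45 bp in bases, each with exact permutation p = 0.1), starts against far ends from -0.0190 to 0.0374, and peaks per region from -0.0044 to 0.0046 with each sample left out, and to -0.0052 with the widest 50% of peaks. Among named regions without a call, Tspoap1 was 0.011 and the wider Spi1 region 0.028 after centring. With each sample left out, Tspoap1 ranged from -0.128 to 0.059, Tcf4 from -0.016 to 0.262, this Spi1 region from -0.11 to 0.048, Fli1 from -0.024 to 0.117 and Kdm6a from -0.027 to 0.136. The cause was not tested. Counts of narrower erythroid regions ranged from 6 to 9 and of ribosomal ones from 5 to 17 over alternatives added after seeing the data.

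Sample numbers did not pair the samples: deviations of same-numbered samples correlated at -0.03, 0.03 and 0.01. With the number as a replicate block, 713 regions were narrower and 325 wider, 8 of the narrower ones at ribosomal protein genes. Among the named regions, Eef1a1 lost its call and the H2ac7 histone region gained one.

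Depth is unknown, and lists without scores cannot tell a weaker peak from a shallower library.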
